A study of Mus musculus with 27 samples.

Results

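The protocadherin genes were described in *Setdb1* conditional knockout (cKO) iMEFs, as every row of the deposited expression files whose gene symbols include one that starts with *Pcdh*. In the siRNA and inhibitor files the rule found 35 of 22152 and of 22243 gene rows, which hold 71 *Pcdh* symbols. One of these rows names 39 genes at once, namely all 15 *Pcdha* genes, all 22 *Pcdhg* genes and 2 predicted genes, so the alpha and gamma clusters cannot be told apart here and are given as the alpha/gamma row. Another 22 rows are the single genes of the beta cluster (*Pcdhb1* to *Pcdhb22*), and 12 rows are genes outside the clusters. In the total RNA files, matched by position, the members form 33 of 20815 features. This is because *Pcdhb16* with *Pcdhb17*, and *Pcdhb21* with *Pcdhb22*, shared a locus in at least 1 library and were summed. Where the locus was merged, a library gives 1 FPKM for both genes, and otherwise a sum of separate values. Libraries may thus differ in scale for these joined features, which was not tested.

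Protocadherins are cadherin-like adhesion proteins of the cell surface, best known from neurons. The clustered genes lie in a row on mouse chromosome 18, and each alpha, beta and gamma variable exon has a promoter of its own, which a cell uses or keeps silent. That choice is known to depend on DNA methylation, CTCF and cohesin, and SETDB1 is known to act on this cluster in neurons. The alpha and gamma genes splice their variable exons to constant exons, whereas beta genes are mostly made of 1 coding exon. The single genes are grouped into delta1 (*Pcdh1*, *Pcdh7*, *Pcdh9*, *Pcdh11x*) and delta2 (*Pcdh8*, *Pcdh10*, *Pcdh17*, *Pcdh18*, *Pcdh19*), with *Pcdh12*, *Pcdh15* and *Pcdh20* outside both. Delta2 proteins bind the actin-regulating WAVE complex through their tails, and *PCDH19* is known as an epilepsy gene of the X chromosome.

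The iMEFs are immortalized mouse embryonic fibroblasts from 1 recloned line, which in every group carries the *Setdb1* cKO alleles, and 4-hydroxytamoxifen (4OHT) triggers the deletion of *Setdb1*, an H3K9 methyltransferase. The total RNA experiment has 3 libraries each of untreated cells, of cells 5 days after 4OHT (4OHT day 5) and of long-term KO cells, which the labels place more than 2 weeks after 4OHT. The siRNA experiment has 2 libraries each of cells given control siRNA (siCtrl) or siRNA against *Dnmt1* (siDnmt1), both without and with 4OHT, taken at day 6. The inhibitor experiment has 2 libraries each of untreated cells, 4OHT day 6, the MEK inhibitor PD0325901 (1 µM for 24 h), 4OHT + PD0325901, and the histone deacetylase inhibitor trichostatin A (TSA, 150 nM for 24 h). The labels do not say whether replicates were separate cultures, so p-values measure the spread between these libraries, which may be technical. In bulk RNA, fewer cells of a type and less RNA per cell cannot be told apart.

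The targeted gene did not follow its labels in every library. *Setdb1* was at 5.16 to 5.95 FPKM in the untreated total RNA libraries, and the library labelled 4OHT day 5 replicate 3, at 6.52 FPKM, and all 3 libraries labelled long-term KO, at 6.96 to 7.32 FPKM, were above that range. In the inhibitor experiment it was listed at 0 in 3 of 4 libraries labelled with 4OHT and at 5.30 FPKM in the library labelled 4OHT day 6 replicate 2. With control siRNA it was at 6.48 to 7.40 FPKM in siCtrl and at 7.58 and 5.00 FPKM in 4OHT + siCtrl. A deletion of some exons need not lower the gene's level. *Dnmt1* was at 73.4 to 80.5 FPKM in both siCtrl and at 10.6 to 12.2 FPKM in both siDnmt1 libraries. In the header of PD0325901 replicate 2, the first line names 4OHT with PD0325901, whereas the next line and the sample label name PD0325901 alone, and the label was followed. *Setdb1* was at 5.56 FPKM in that library, at 5.34 FPKM in PD0325901 replicate 1 and listed at 0 in both 4OHT + PD0325901 libraries. Of the fibroblast markers, *Vim* was at 468 FPKM or more and *Col1a2* at 205 FPKM or more in every library, and *Col1a1* was matched in the siRNA and inhibitor files alone. *Col3a1* spanned 18.8 to 490 FPKM, *Pdgfrb* 1.82 to 35.7 FPKM and *Thy1* 16.2 to 176 FPKM. *Fn1* spanned 94.4 to 641 FPKM and *S100a4* 126 to 1121 FPKM. The 8 neuron markers were uneven. *Rbfox3* and *Dcx* stayed at or under 0.0833 FPKM and *Snap25* at or under 0.303 FPKM, whereas *Tubb3* spanned 16.2 to 242 FPKM and *Map2* 1.55 to 53.0 FPKM. *Stmn2* reached 74.2 FPKM, *Nefl* 5.20 FPKM and *Syt1* 2.81 FPKM. FPKM is the number of fragments scaled to transcript length and to the mapped fragments of the library.

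In cells without 4OHT, few protocadherins carried most of the RNA. The alpha/gamma row, on chromosome 18 from 37089939 to 38001526 (mm9), was at 71.4 and 72.1 FPKM in siCtrl and at 64.3 and 69.9 FPKM in the untreated inhibitor libraries. Its length is that of a merged locus, so its level is not comparable with that of 1 gene. Among the single genes, *Pcdh19* (chromosome X, 130117400 to 130223532) was at 37.6 and 39.4 FPKM and *Pcdh18* (chromosome 3, 49547218 to 49561238) at 24.7 and 25.9 FPKM in siCtrl, and the highest of the other 10 was *Pcdh20* at 0.571 FPKM. The order *Pcdh19* above *Pcdh18* held in every library except the 3 of long-term KO, where *Pcdh18* was at 29.2 to 30.0 and *Pcdh19* at 20.6 to 22.0 FPKM.

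The beta genes were low, and their levels followed their place in the cluster. The 22 rows summed to 18.0 and 18.8 FPKM in siCtrl and to 14.9 and 14.4 FPKM in the untreated inhibitor libraries. The 9 genes at the gamma end, *Pcdhb14* to *Pcdhb22* (37607311 to 37681073), held 89.4% of that sum in siCtrl and 89.4% in the untreated inhibitor libraries. *Pcdhb17* alone held 25.7% and 21.6%, and *Pcdhb22* 21.2% and 22.8%. Toward the alpha end only *Pcdhb5* reached 0.661 FPKM in the siCtrl mean, and *Pcdhb1* was at 0 in both groups. Across the 22 genes, place and mean level had a Spearman rho of 0.788 in siCtrl and 0.828 in the untreated inhibitor libraries, and the levels of both groups had a rho of 0.94, given as descriptions because paralogs share sequence and the aligner placed each ambiguous read once. These levels rest on few fragments: the deposited intervals imply 964 and 1007 fragments over all beta rows in siCtrl and 697 and 606 in the untreated inhibitor libraries.

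**Figure D1:**
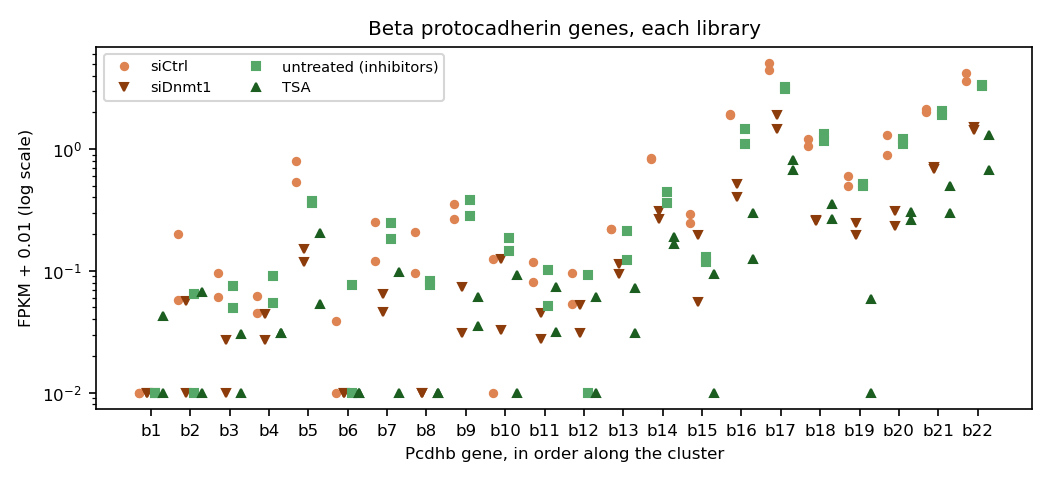
FPKM + 0.01 on a log scale for the 22 *Pcdhb* genes (b1 to b22) in their order along the cluster, with 1 symbol per library for siCtrl, siDnmt1, untreated (inhibitors) and TSA; symbols at the lower edge are listed at 0. The highest genes lie from b14 onwards, although the mean of b15 is under that of b5 in both control groups. The siDnmt1 and TSA symbols lie under those of their controls for most genes.

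The promoters of single genes that differ in level are shown to set genes that were on beside genes that were near 0. RefSeq sequences (GRCm38.p6) were matched for 9 of the 12 single genes, and the 250 bases before the start are printed 5′ to 3′ along the gene, with the Sp1-type motif GGGCGG, searched on both strands, in capitals. *Pcdh18* (chromosome 3, 49757317 to 49757566, minus strand) and *Pcdh19* (chromosome X, 133688994 to 133689243, minus strand) were on in all libraries. *Pcdh10* (chromosome 3, 45378148 to 45378397, plus strand) and *Pcdh20* (chromosome 14, 88471397 to 88471646, minus strand) were near 0 in untreated inhibitor libraries.
Pcdh18: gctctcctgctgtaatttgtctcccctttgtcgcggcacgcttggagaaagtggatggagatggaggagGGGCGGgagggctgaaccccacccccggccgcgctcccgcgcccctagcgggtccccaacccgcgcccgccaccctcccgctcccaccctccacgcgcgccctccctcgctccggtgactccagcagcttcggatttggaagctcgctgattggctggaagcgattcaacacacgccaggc
Pcdh19: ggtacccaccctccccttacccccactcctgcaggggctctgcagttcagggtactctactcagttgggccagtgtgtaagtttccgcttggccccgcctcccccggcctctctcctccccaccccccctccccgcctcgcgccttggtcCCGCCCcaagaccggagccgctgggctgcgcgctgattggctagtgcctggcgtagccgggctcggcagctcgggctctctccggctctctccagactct
Pcdh10: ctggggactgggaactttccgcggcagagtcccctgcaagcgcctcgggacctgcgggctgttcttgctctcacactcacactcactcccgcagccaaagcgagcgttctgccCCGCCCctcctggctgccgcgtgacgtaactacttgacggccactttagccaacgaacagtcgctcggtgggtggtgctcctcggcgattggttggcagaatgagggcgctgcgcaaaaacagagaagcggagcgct
Pcdh20: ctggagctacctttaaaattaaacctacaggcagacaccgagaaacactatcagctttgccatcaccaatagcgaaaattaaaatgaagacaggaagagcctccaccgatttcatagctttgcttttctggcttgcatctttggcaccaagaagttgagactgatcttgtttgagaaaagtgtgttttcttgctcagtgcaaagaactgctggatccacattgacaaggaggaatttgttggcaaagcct
These 4 promoters hold 23, 16, 22 and 3 CG dinucleotides in that order, against a median of 6 over 32851 RefSeq promoters of the same length. *Pcdh18*, *Pcdh19*, *Pcdh10* and *Pcdh17* hold GGGCGG once each, as do 32.7% of all promoters at least once, and the other 5 do not. CCAAT on either strand occurs in 8 of the 9 and in 33.8% of all, and TATAAA on either strand in *Pcdh8* and *Pcdh15* and in 12.4% of all. High CG counts were thus found in *Pcdh18* and *Pcdh19*, which were on, and in *Pcdh10*, which was near 0.

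Libraries labelled 4OHT day 5 had less beta and *Pcdh18* RNA than untreated libraries. The summed beta rows were at 9.64, 8.71 and 8.64 FPKM in untreated cells and at 5.20, 5.61 and 4.57 FPKM at 4OHT day 5, so the groups did not overlap. *Pcdh18* was at 14.3, 14.4 and 14.2 FPKM untreated and at 5.63, 6.72 and 6.76 FPKM at 4OHT day 5, a 2.24-fold lower mean. To be tested, a feature had to reach 1 FPKM in a number of libraries equal to the smallest group. It was called at an adjusted p under 0.05 (limma on log2(FPKM + 0.1), Benjamini-Hochberg over all features) and a fold change of at least 2. Of the 33 members, 7 passed the filter, and 3 were called lower and 0 higher, with 1.26% of all 9979 tested features called lower. *Pcdh18* fell by 1.16 on the log2 scale (SE 0.07, adjusted p = 1.13e-05), *Pcdhb16* with *Pcdhb17* fell by 1.15 (SE 0.05, adjusted p = 2.80e-06), and *Pcdhb20* fell by 1.10 (SE 0.25, adjusted p = 0.0111).

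Among beta features above 0, all 3 libraries labelled 4OHT day 5 were below all 3 untreated libraries for 14 of 19 and above them for 0, where 18.0% of all features were below. The alpha/gamma row went the other way, from 34.1, 34.6 and 34.9 FPKM to 41.7, 44.6 and 45.7 FPKM, with no overlap. Its log2 fold change of 0.35 (SE 0.04, adjusted p = 3.06e-04) was under the fold limit. *Pcdh19* was at 31.0 to 32.1 FPKM untreated and at 23.3 to 24.5 FPKM at 4OHT day 5, a log2 fold change of -0.39 that was also under the limit. Without 4OHT day 5 replicate 3, the log2 fold change of *Pcdhb20* was -0.79 and the call was lost, and *Setdb1* went against the label in that library. The epithelial marker sum was 1.22 to 1.56 FPKM untreated and 4.19 to 5.27 FPKM at 4OHT day 5, the fibroblast sum 1986 to 2029 and 1708 to 1780 FPKM, and the neuron sum 119 to 122 and 157 to 167 FPKM. The neuron sum was mostly *Tubb3* (means 118 and 160 FPKM), while *Map2* was slightly lower (2.53 and 2.22 FPKM). Fibroblast means were lower for *Col1a2* (397 and 276 FPKM), *Col3a1* (251 and 90.5), *Pdgfrb*, *Fn1* and *S100a4*. They were higher for *Thy1* (18.9 and 30.2 FPKM) and *Vim* (889 and 906). The part of these markers in the result was not tested.

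In long-term KO libraries summed beta, alpha/gamma and *Pcdh18* RNA were higher than in untreated libraries, but not every beta gene was. The summed beta rows were at 19.2, 19.6 and 20.3 FPKM, above every untreated library. The joined feature *Pcdhb21* with *Pcdhb22* differed most in FPKM among them, with means of 3.08 FPKM untreated and 9.82 FPKM in long-term KO. Means were near level for some others, such as *Pcdhb14* (0.313 and 0.331 FPKM) and *Pcdhb11* (0.0594 and 0.0585 FPKM). The alpha/gamma row was at 72.9, 74.0 and 75.0 FPKM, 2.14-fold the untreated mean, and *Pcdh18* at 29.2, 30.0 and 29.6 FPKM, 2.07-fold. Against untreated cells, 4 of the 7 tested members were called higher and 0 lower, with 7.46% of all features called higher. *Pcdhb18* and *Pcdhb20* reached 1 FPKM in long-term KO libraries alone and so passed the filter through the group where they are high, and 3 of the other 5 were called. The 4 called were the alpha/gamma row with a log2 fold change of 1.10 (SE 0.04, adjusted p = 1.66e-07), *Pcdh18* with 1.05 (SE 0.07, adjusted p = 4.36e-06), *Pcdhb20* with 1.26 (SE 0.25, adjusted p = 0.00250), and *Pcdhb21* with *Pcdhb22* with 1.65 (SE 0.11, adjusted p = 6.89e-06). *Pcdhb16* with *Pcdhb17* had a log2 fold change of 0.62 and *Pcdhb18* of 0.53, both under the fold limit. All 3 long-term KO libraries were above all untreated ones for 8 of 19 beta features, where 34.3% of all features were, and below them for 0. *Pcdh19* stayed under its untreated range, at 20.6, 20.8 and 22.0 FPKM, with a log2 fold change of -0.58 (SE 0.04, adjusted p = 4.56e-06). The *Pcdh18* value became 0.996, just under the limit, with median-ratio scaling. Marker sums in long-term KO were 2289 to 2400 FPKM for fibroblasts, 147 to 154 FPKM for neurons, 0.377 to 0.576 FPKM for epithelium and 1.13 to 1.24 FPKM for pluripotent cells, the last against 0.209 to 0.356 FPKM untreated. Among fibroblast markers, mean FPKM was higher for *Pdgfrb* (35.2 against 4.97 untreated), *Col1a2* (549 against 397) and *S100a4* (541 against 336). It was slightly lower for *Col3a1* (241 against 251), *Thy1* (17.2 against 18.9), *Vim* (857 against 889) and *Fn1* (106 against 113). Their part in the result was not tested.

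The direct comparison of long-term KO with 4OHT day 5 called 5 of the 7 tested members higher and 0 lower, with 6.39% of all features called higher. Without *Pcdhb18* and *Pcdhb20*, which passed the filter through long-term KO alone, 3 of 5 were called. All 4 tested beta features were called, with *Pcdhb20* at 0.115 to 0.333 FPKM on day 5 and at 1.41 to 1.68 FPKM in long-term KO, a log2 fold change of 2.35 (SE 0.25). *Pcdhb21* with *Pcdhb22* went from 2.00 to 2.75 FPKM up to 9.64 to 10.0 FPKM, a 4.06-fold higher mean. *Pcdh18* differed most in FPKM among the called members, with a 4.65-fold higher mean and a log2 fold change of 2.20 (SE 0.07, adjusted p = 1.14e-07). Between these times the alpha/gamma row differed by 0.75 and *Pcdh19* by -0.19 on the log2 scale, both under the fold limit. The 3 comparisons share their libraries in pairs and are not independent of each other. Over all tested features the median log2 fold change was 0.00 at 4OHT day 5, 0.06 in long-term KO and 0.04 between them.

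**Figure D2:**
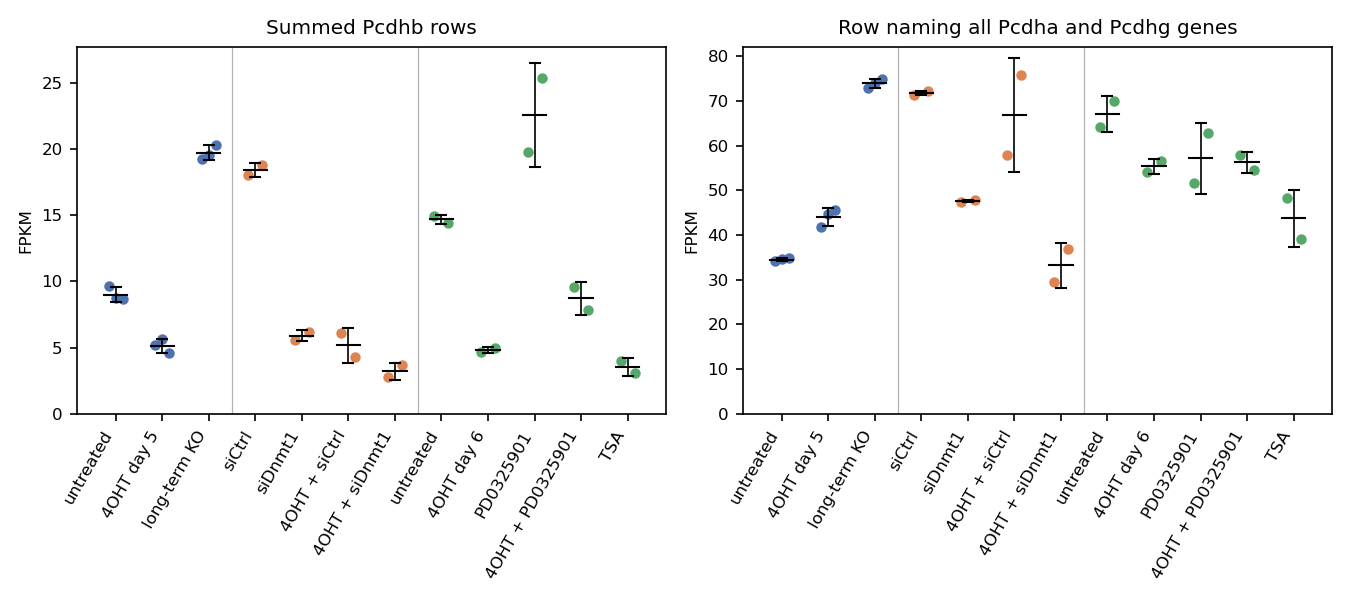
FPKM of the summed *Pcdhb* rows (left) and of the row naming all *Pcdha* and *Pcdhg* genes (right) in all 12 groups, with 1 point per library, a bar at the mean and whiskers of 1 SD; grey lines separate the total RNA, siRNA and inhibitor experiments, which were normalized separately. The beta sum lies below its control with 4OHT, siDnmt1 and TSA and above it in long-term KO and PD0325901, while the alpha/gamma row lies above untreated in both 4OHT groups of the total RNA experiment and below its control in siDnmt1 and TSA.

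Knockdown of *Dnmt1*, the maintenance DNA methyltransferase, addressed whether protocadherin RNA changes when DNA methylation is reduced. Beta RNA was lower in siDnmt1: the beta rows summed to 18.0 and 18.8 FPKM in siCtrl and to 5.58 and 6.17 FPKM in siDnmt1. *Pcdhb16* went from 1.92 and 1.90 FPKM to 0.502 and 0.392 FPKM, and *Pcdhb22* from 4.20 and 3.59 FPKM to 1.51 and 1.43 FPKM. Of the 35 members, 8 passed the filter, and these 2 genes were called lower and none higher, with 2.38% of all 11225 features called lower. *Pcdhb16* fell by 1.88 on the log2 scale (SE 0.35, adjusted p = 0.0300) and *Pcdhb22* fell by 1.34 (SE 0.22, adjusted p = 0.0214). *Pcdhb16*, *Pcdhb18* and *Pcdhb21* reached 1 FPKM in siCtrl alone and so passed the filter through the group where they are high, and 1 of the other 5 was called. No member was called when any 1 of the siCtrl or siDnmt1 libraries was left out, and 1 was called with the replicate number as a block.

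The other 6 tested members missed the threshold. *Pcdh18* was at 24.7 and 25.9 FPKM in siCtrl and at 8.22 and 8.03 FPKM in siDnmt1, a log2 fold change of -1.63 (SE 0.42, adjusted p = 0.0735). In siDnmt1 the alpha/gamma row was at 47.5 and 47.8 FPKM, a log2 fold change of -0.59 (adjusted p = 0.0791). *Pcdhb17*, *Pcdhb18* and *Pcdhb21* had log2 fold changes of -1.46, -1.81 and -1.46, with adjusted p of 0.0608, 0.0583 and 0.101. *Pcdh19* was at 33.4 and 33.4 FPKM against 39.4 and 37.6 FPKM (log2 fold change -0.20, SE 0.19). Both siDnmt1 libraries were below both siCtrl libraries for 19 of 21 beta rows above 0 and above them for 0, where 38.3% of all features were below. The epithelial markers moved with this comparison, with a sum over *Epcam*, *Cdh1*, *Krt8* and *Krt18* of 0.677 to 0.986 FPKM in siCtrl and 55.4 to 55.8 FPKM in siDnmt1, mostly *Krt8* and *Krt18*. The neuron sum was 22.2 to 22.8 FPKM in siCtrl and 62.3 to 66.6 FPKM in siDnmt1, mostly *Tubb3*, and the fibroblast sum 4937 to 5039 and 4031 to 4204 FPKM. Fibroblast means were lower in siDnmt1 for *Col1a1* (1127 to 621 FPKM), *Col1a2* (1004 to 528), *Col3a1* (382 to 175), *Pdgfrb*, *Fn1* and *S100a4*. They were higher for *Vim* (945 to 1344 FPKM) and *Thy1* (60.3 to 131). The part of these markers in the result was not tested.

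With control siRNA, 4OHT was followed by lower beta and *Pcdh18* RNA. *Pcdh18* was at 7.12 and 2.74 FPKM in 4OHT + siCtrl, below both siCtrl libraries. *Pcdhb17* was at 4.42 and 5.03 FPKM in siCtrl and at 1.59 and 0.837 FPKM in 4OHT + siCtrl. Of the 8 tested members, 4 were called lower and 0 higher, with 3.36% of all features called lower. Without the 3 that passed the filter through siCtrl alone, 3 of 5 were called. *Pcdh18* fell by 2.49 on the log2 scale (SE 0.42, adjusted p = 0.0185), *Pcdhb17* fell by 1.94 (SE 0.35, adjusted p = 0.0217), *Pcdhb16* fell by 1.76 (SE 0.35, adjusted p = 0.0267) and *Pcdhb22* fell by 1.32 (SE 0.22, adjusted p = 0.0174). *Pcdhb21* had a log2 fold change of -1.71 with an adjusted p of 0.0519. Both 4OHT + siCtrl libraries were below both siCtrl libraries for 19 of 21 beta rows and above for 0, where 21.7% of all features were below. With 4OHT the alpha/gamma row spanned its siCtrl values, at 57.8 and 75.8 FPKM. Without siCtrl replicate 1, and likewise without siCtrl replicate 2, 0 members were called. The fibroblast marker sum was 4937 to 5039 FPKM in siCtrl and 2324 to 3657 FPKM in 4OHT + siCtrl. The mean of *Vim* was higher in 4OHT + siCtrl (945 to 1200 FPKM), and those of the other fibroblast markers were lower. In 4OHT + siCtrl the neuron sum was 59.4 to 84.1 FPKM and the epithelial sum 1.12 to 12.6 FPKM, and the part of these markers in the result was not tested.

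On top of the *Dnmt1* knockdown, 4OHT was followed by still lower *Pcdh18*, at 2.79 and 1.93 FPKM against 8.22 and 8.03 FPKM in siDnmt1. It fell by 1.76 on the log2 scale (SE 0.42, adjusted p = 0.0452), the 1 member of 8 called lower, with 2.21% of all features called lower. No member was called without any 1 of the siDnmt1 or 4OHT + siDnmt1 libraries or with the replicate block, where the adjusted p was 0.0501. In this comparison the median of all features was 0.14 on the log2 scale, and 0.00 after median-ratio scaling. Between 4OHT + siDnmt1 and 4OHT + siCtrl the alpha/gamma row was the 1 member called, at 29.6 and 36.8 FPKM against 57.8 and 75.8 FPKM, with 0.41% of all features called lower. It fell by 1.00 on the log2 scale (SE 0.16, adjusted p = 0.0415), at the edge of the fold limit, and by 0.98 with median-ratio scaling. That call was lost without either 4OHT + siDnmt1 library, without 4OHT + siCtrl replicate 2 (log2 fold change -0.81), and with the block, where the adjusted p was 0.0530. In 4OHT + siDnmt1 the epithelial sum was 53.5 to 86.2 FPKM, the fibroblast sum 2383 to 2424 FPKM and the neuron sum 40.4 to 57.2 FPKM, to be read against the ranges of siDnmt1 and 4OHT + siCtrl above. All fibroblast marker means were below those of siDnmt1. Against 4OHT + siCtrl, *Vim* (1227 against 1200 FPKM) and *Thy1* (65.6 against 51.7) were higher and the other fibroblast markers lower. The part of these markers in either result was not tested.

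By limma, 0 members were called for the interaction of 4OHT and siDnmt1, with 0.196% of all features called in either direction. Only *Pcdhb22*, 1 of 8 members, had an unadjusted p under 0.05, with an interaction of 0.94 on the log2 scale (SE 0.31, adjusted p = 0.426). An unadjusted p under 0.05 was found for 1113 of all 11225 features. The beta sum was 18.4 ± 0.531 FPKM in siCtrl, 5.88 ± 0.421 in siDnmt1, 5.18 ± 1.31 in 4OHT + siCtrl and 3.21 ± 0.648 in 4OHT + siDnmt1 (SD, n = 2 each). The 4 comparisons share groups, so these values are not independent of each other.

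In the inhibitor experiment, 4OHT was again followed by less beta and *Pcdh18* RNA, and by more of 2 low single genes. The beta sum was 14.9 and 14.4 FPKM in untreated cells and 4.65 and 4.95 FPKM at 4OHT day 6. *Pcdhb20* went from 1.20 and 1.10 FPKM to 0.133 and 0.179 FPKM, a 7.35-fold lower mean, although the latter values rest on 6 and 7 fragments. *Pcdh18* went from 19.3 and 20.0 FPKM to 7.49 and 6.09 FPKM. Of the 35 members, 11 passed the filter, and 6 were called lower, with 6.1% of all 11904 features called lower, and 2 higher, with 5.05% of all features called higher. The 2 called higher passed the filter through TSA alone. *Pcdhb16*, *Pcdhb18*, *Pcdhb20* and *Pcdhb21* reached 1 FPKM in untreated and PD0325901 libraries and in no other group.

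The members called lower were 5 of the 6 tested beta genes and *Pcdh18*. *Pcdhb20* fell by 2.29 on the log2 scale (SE 0.24, adjusted p = 0.00123), *Pcdhb16* fell by 1.84 (SE 0.33), *Pcdhb21* fell by 1.75 (SE 0.28), *Pcdhb17* fell by 1.68 (SE 0.31), *Pcdh18* fell by 1.53 (SE 0.22) and *Pcdhb18* fell by 1.34 (SE 0.31), with adjusted p from 0.00377 to 0.0186 for the last 5. *Pcdhb22*, the gene nearest the gamma cluster, was at 1.51 and 2.16 FPKM against 3.31 and 3.37 FPKM, a log2 fold change of -0.85 (adjusted p = 0.0981). *Pcdh19* was at 23.2 and 26.5 FPKM against 43.1 and 51.2 FPKM, with a log2 fold change of -0.92 (SE 0.14, adjusted p = 0.00396) just under the fold limit. Both 4OHT day 6 libraries were below both untreated ones for 18 of 21 beta rows and above for 0, where 29.5% of all features were below.

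The 2 members called higher at 4OHT day 6 were far lower in level. *Pcdh20* went from 0.154 and 0.124 FPKM to 1.00 and 0.469 FPKM, a log2 fold change of 1.73 (SE 0.38, adjusted p = 0.0163). *Pcdh1* was listed at 0 in both untreated libraries and at 0.153 and 0.220 FPKM at 4OHT day 6, with a fitted log2 fold change of 1.51 (SE 0.38, adjusted p = 0.0265). The fitted value depends on the pseudocount and was 0.25 with a pseudocount of 1. Widely used genes are at times listed at 0 in these files too, so a 0 can be a failed estimate. Without untreated replicate 1 or replicate 2, 4 members were called, and without 4OHT day 6 replicate 1, 5. The neuron marker sum was 147 to 153 FPKM untreated and 214 to 223 FPKM at 4OHT day 6, mostly *Tubb3*, and the fibroblast sum 3959 to 4202 and 2875 to 2989 FPKM. Fibroblast means were higher at 4OHT day 6 for *Vim* (1008 to 1459 FPKM) and slightly for *Thy1* (56.5 to 59.0), and lower for the others. The part of these markers in the result was not tested. At 4OHT day 5 *Pcdh20* was instead at 0.0507 to 0.0757 FPKM against 0.166 to 0.202 FPKM untreated, under the filter of that experiment.

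**Figure D3:**
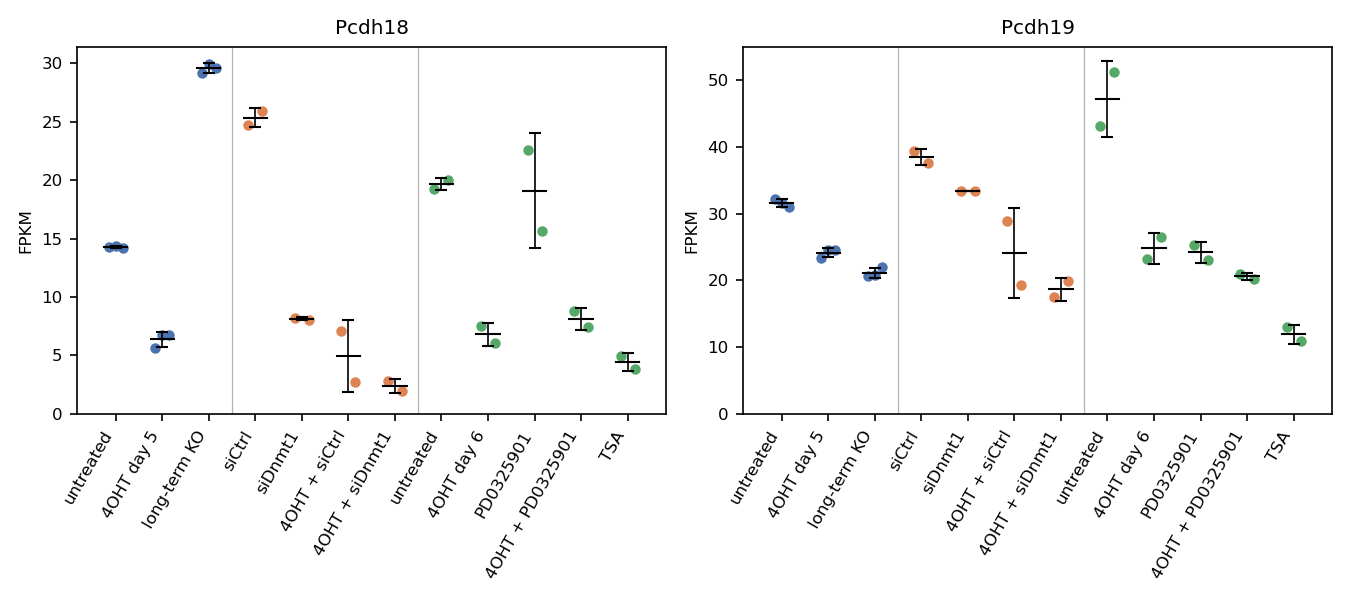
FPKM of *Pcdh18* (left) and *Pcdh19* (right) in all 12 groups, with 1 point per library, a bar at the mean and whiskers of 1 SD; grey lines separate the experiments. *Pcdh18* lies at 14.2 to 14.4 FPKM in untreated total RNA libraries, at 5.63 to 6.76 at 4OHT day 5 and at 29.2 to 30.0 in long-term KO, and *Pcdh19* is lowest with TSA.

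With MEK inhibition 1 protocadherin was called. *Pcdhb17* was at 3.23 and 3.10 FPKM untreated and at 6.51 and 7.91 FPKM with PD0325901, and was the 1 of 11 tested members called higher, with 2.99% of all features called higher. Its log2 fold change was 1.16 (SE 0.31, adjusted p = 0.0469). The call was lost without any 1 of the 4 libraries, among them PD0325901 replicate 2, the library whose header disagrees with its label, and the log2 fold change without it was 1.02. The beta sum was 19.8 and 25.3 FPKM, above both untreated libraries, and both PD0325901 libraries were above both untreated ones for 12 of 21 beta rows and below for 0, where 23.6% of all features were above. *Pcdh19* was at 25.3 and 23.1 FPKM, a log2 fold change of -0.96 (SE 0.14, adjusted p = 0.00491) under the fold limit. *Pcdh18*, at 22.6 and 15.6 FPKM, spanned its untreated values. With PD0325901 the fibroblast sum was 4978 to 5460 FPKM, the neuron sum 184 to 209 FPKM and the epithelial sum 0.167 to 0.316 FPKM. The fibroblast markers moved in opposite directions. Mean FPKM was higher for *Col1a1* (1781 against 692 untreated), *Col1a2* (1417 against 596), *Col3a1* (366 against 305) and *Fn1* (595 against 374). It was lower for *Vim* (560 against 1008), *S100a4* (445 against 1029) and *Thy1* (37.2 against 56.5), and near level for *Pdgfrb* (18.6 against 18.7). The part of these markers in the result was not tested.

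With both agents, the beta sum lay between its values with each alone. It was 9.57 and 7.83 FPKM with 4OHT + PD0325901, above both 4OHT day 6 libraries and below both PD0325901 libraries. Against 4OHT day 6, *Pcdhb20* was called higher, at 0.555 and 0.467 FPKM against 0.133 and 0.179 FPKM, with 2.29% of all features called higher (log2 fold change 1.26, SE 0.24, adjusted p = 0.0261). *Pcdh20* was called lower, at 0.0282 and 0.0623 FPKM against 1.00 and 0.469 FPKM, with 1.37% of all features called lower (log2 fold change -2.46, SE 0.38, adjusted p = 0.0115). The *Pcdhb20* call was lost without any 1 of the 4 libraries, and the *Pcdh20* call without 4OHT + PD0325901 replicate 1. Against PD0325901, 5 members were called lower, with 1.29% of all features called lower. *Pcdhb17*, *Pcdhb16*, *Pcdhb20*, *Pcdhb21* and *Pcdh18* fell by 1.81, 1.64, 1.45, 1.44 and 1.21 on the log2 scale, with adjusted p from 0.0134 to 0.0242. Among them, *Pcdhb16*, *Pcdhb20* and *Pcdhb21* reached 1 FPKM in untreated and PD0325901 libraries and in no other group, so they passed the filter through groups where they are high. *Pcdh1* was called higher, with 3.35% of all features called higher, at 0.614 and 0.233 FPKM against 0.0784 and 0.0400 FPKM. Only 1 member was called without PD0325901 replicate 2 or without 4OHT + PD0325901 replicate 2, and 3 without PD0325901 replicate 1. By limma, 0 members were called for the interaction of 4OHT and PD0325901, with 0.638% of all features called in either direction. The unadjusted p was under 0.05 for 3 of the 11, *Pcdh20* with an interaction of -1.86 (SE 0.54, adjusted p = 0.174), *Pcdh19* with 0.69 (SE 0.19, adjusted p = 0.159) and *Pcdhb20* with 0.84 (SE 0.34, adjusted p = 0.300). An unadjusted p under 0.05 was found for 1871 of all 11904 features. The fibroblast sum with both agents was 3360 to 3364 FPKM and the neuron sum 236 to 247 FPKM. Against 4OHT day 6, fibroblast means were higher for *Col1a1* (988 against 324 FPKM), *Col1a2*, *Col3a1*, *Pdgfrb* and *Fn1*. They were lower for *Vim* (711 against 1459 FPKM), *S100a4* and *Thy1*. Against PD0325901 they were higher for *Vim* (711 against 560 FPKM) and *Thy1* and lower for the others. The part of these markers in these results was not tested.

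With TSA, beta genes, *Pcdh18* and *Pcdh19* fell, and the low single genes *Pcdh1* and *Pcdh20* were higher. The beta sum was 4.01 and 3.05 FPKM, against 14.9 and 14.4 FPKM untreated. *Pcdh19* was at 12.9 and 10.9 FPKM against 43.1 and 51.2 FPKM, a 3.95-fold lower mean. *Pcdh18* was at 4.99 and 3.86 FPKM against 19.3 and 20.0 FPKM, a 4.45-fold lower mean. Of the 11 tested members, 8 were called lower, with 12.7% of all features called lower, and 2 higher, with 19.0% of all features called higher. *Pcdh1* and *Pcdh20*, the 2 called higher, reached 1 FPKM in both TSA libraries and otherwise in 1 library (*Pcdh20*, 4OHT day 6), so they passed the filter through the group where they are high, and their values are given as a description. Of the other 9, 8 were called lower and 0 higher. Among these 8, *Pcdhb16*, *Pcdhb18*, *Pcdhb20* and *Pcdhb21* reached 1 FPKM in untreated and PD0325901 libraries and in no other group. They thus passed the filter through groups where they are high.

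All 6 tested beta genes fell with TSA, with log2 fold changes from -2.23 (*Pcdhb16*, SE 0.33, adjusted p = 8.40e-04) to -1.75 (*Pcdhb22*, SE 0.33, adjusted p = 0.00274). *Pcdhb17* was at 0.803 and 0.662 FPKM, which rest on 33 and 28 fragments, against 3.23 and 3.10 FPKM from 140 and 121 fragments. *Pcdh18* fell by 2.14 on the log2 scale (SE 0.22, adjusted p = 1.62e-04) and *Pcdh19* fell by 1.97 (SE 0.14, adjusted p = 2.89e-05), its only call in the 12 comparisons. The alpha/gamma row was at 48.3 and 39.2 FPKM against 64.3 and 69.9 FPKM, with no overlap, and its log2 fold change of -0.62 (SE 0.13, adjusted p = 0.00534) was under the fold limit. Both TSA libraries were below both untreated ones for 17 of 22 beta rows above 0 and above for 0, where 29.4% of all features were below.

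Of the 11 single genes above 0, both TSA libraries were above both untreated ones for 7 and below for 2 (*Pcdh18* and *Pcdh19*). Of all features, 48.0% were above and 29.4% below. *Pcdh1*, a delta1 gene next to the cluster (38356348 to 38369416), was listed at 0 in both untreated libraries and at 5.12 and 5.75 FPKM with TSA. *Pcdh20* went from 0.154 and 0.124 FPKM to 1.64 and 2.52 FPKM, a fitted log2 fold change of 3.16. The other 5 were under the filter and were not tested. *Pcdh9* was at 0.811 and 1.91 FPKM with TSA against 0.0269 and 0.0295 FPKM, and *Pcdh10* at 1.06 and 0.882 FPKM against a listed 0 in both untreated libraries. *Pcdh7* was at 0.582 and 0.651 FPKM against 0 and 0.0146 FPKM. *Pcdh8*, at 0.289 and 0.641 FPKM, and *Pcdh17*, at 0.327 and 0.687 FPKM, were listed at 0 in both untreated libraries and are named after their values were seen. *Pcdh12*, *Pcdh15* and *Pcdh11x* stayed at or under 0.0313 FPKM with TSA. Markers of other cell types moved with TSA as well, with an epithelial sum of 31.3 to 32.4 FPKM against 1.28 to 1.39 FPKM untreated, mostly *Epcam*, a neuron sum of 222 to 237 FPKM against 147 to 153 FPKM and a fibroblast sum of 3557 to 3575 FPKM against 3959 to 4202 FPKM. Among neuron markers *Stmn2* went from a mean of 0.390 to 67.7 FPKM and *Map2* from 3.83 to 46.0 FPKM, while *Tubb3* went from 146 to 109 FPKM. The fibroblast markers moved in opposite directions. Lower means were those of *Col1a1* (692 to 235 FPKM), *Col1a2* (596 to 211), *Col3a1* (305 to 26.9), *Pdgfrb* (18.7 to 5.00) and *S100a4* (1029 to 163). Higher means were those of *Vim* (1008 to 2148 FPKM), *Fn1* (374 to 625) and *Thy1* (56.5 to 151). Their part in the result was not tested.

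**Figure D4:**
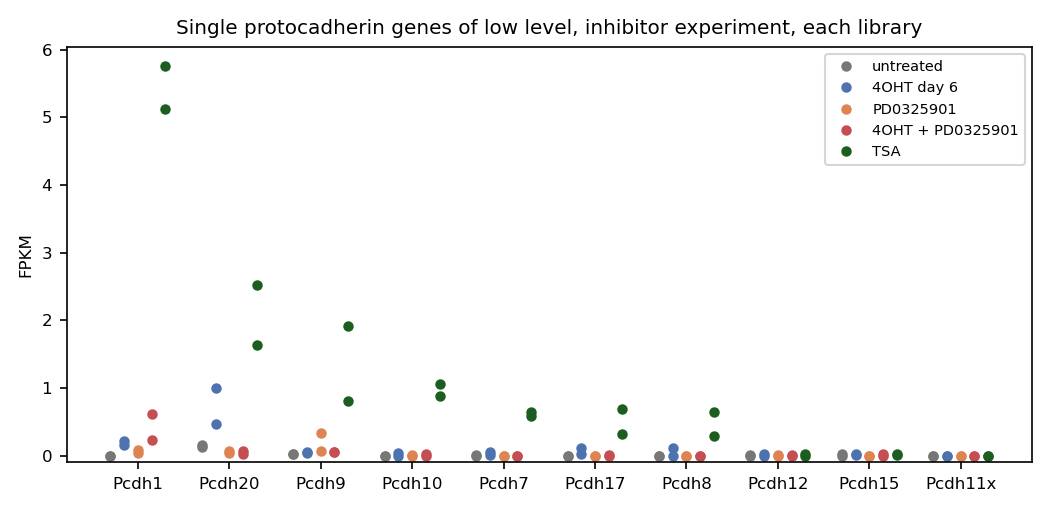
FPKM of the 10 single protocadherin genes of low level in the 10 inhibitor libraries, with 1 point per library coloured by group. The TSA points of *Pcdh1* at 5.12 and 5.75 FPKM stand highest, those of *Pcdh20*, *Pcdh9*, *Pcdh10*, *Pcdh7*, *Pcdh17* and *Pcdh8* lie above the untreated points, and *Pcdh12*, *Pcdh15* and *Pcdh11x* stay near 0.

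Some of the genes that were near 0 before TSA also had RNA in long-term KO. *Pcdh7* was at 0.354 to 0.410 FPKM in the 3 long-term KO libraries and at most 0.0125 FPKM in the other 6 total RNA libraries. *Pcdh9* was at 0.428 to 0.510 FPKM against at most 0.0961 FPKM, *Pcdh10* at 0.186 to 0.271 FPKM against at most 0.0183 FPKM, and *Pcdh17* at 0.219 to 0.284 FPKM against at most 0.0200 FPKM. *Pcdh8* was listed at 0 in all 3 long-term KO libraries. *Pcdh20*, at 0.0271 to 0.0537 FPKM, was under its untreated range of 0.166 to 0.202 FPKM. All of these values were under the filter and were not tested.

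With siDnmt1, both libraries were above both siCtrl libraries for 2 of 10 single genes above 0 and below them for 4. Of all features, 25.7% were above and 38.3% below. *Pcdh1* was at 0.0659 and 0.0827 FPKM in siCtrl and at 0.160 and 0.147 FPKM in siDnmt1. *Pcdh20* was at 0.521 and 0.571 FPKM in siCtrl and at 0.0353 and 0.0598 FPKM in siDnmt1, and *Pcdh9* at 0.237 and 0.253 FPKM and at 0.0338 and 0.0229 FPKM. *Pcdh10* was listed at 0 in all 4 libraries without 4OHT. *Pcdh20* was at 1.02 and 0.660 FPKM in 4OHT + siCtrl and at 0.119 and 0.103 FPKM in 4OHT + siDnmt1, so both siDnmt1 groups were below both groups without it. For *Pcdh9* the 4OHT groups went the other way, with 0.108 and 0.0995 FPKM in 4OHT + siCtrl and 0.217 and 0.190 FPKM in 4OHT + siDnmt1. These rows were under the filter, as were 27 of 35 members in the siRNA, 24 of 35 in the inhibitor and 26 of 33 in the total RNA experiment. The highest value among them was 1.91, 1.30 and 0.791 FPKM in the inhibitor, siRNA and total RNA experiment, for *Pcdh9*, *Pcdhb20* and *Pcdhb19*. In siCtrl, *Pcdhb14* was at 0.811 and 0.833 FPKM and *Pcdhb5* at 0.531 and 0.79 FPKM, which with *Pcdhb20*, *Pcdh20* and *Pcdhb19* had the 5 highest means over all 8 siRNA libraries among untested members.

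**Figure D5:**
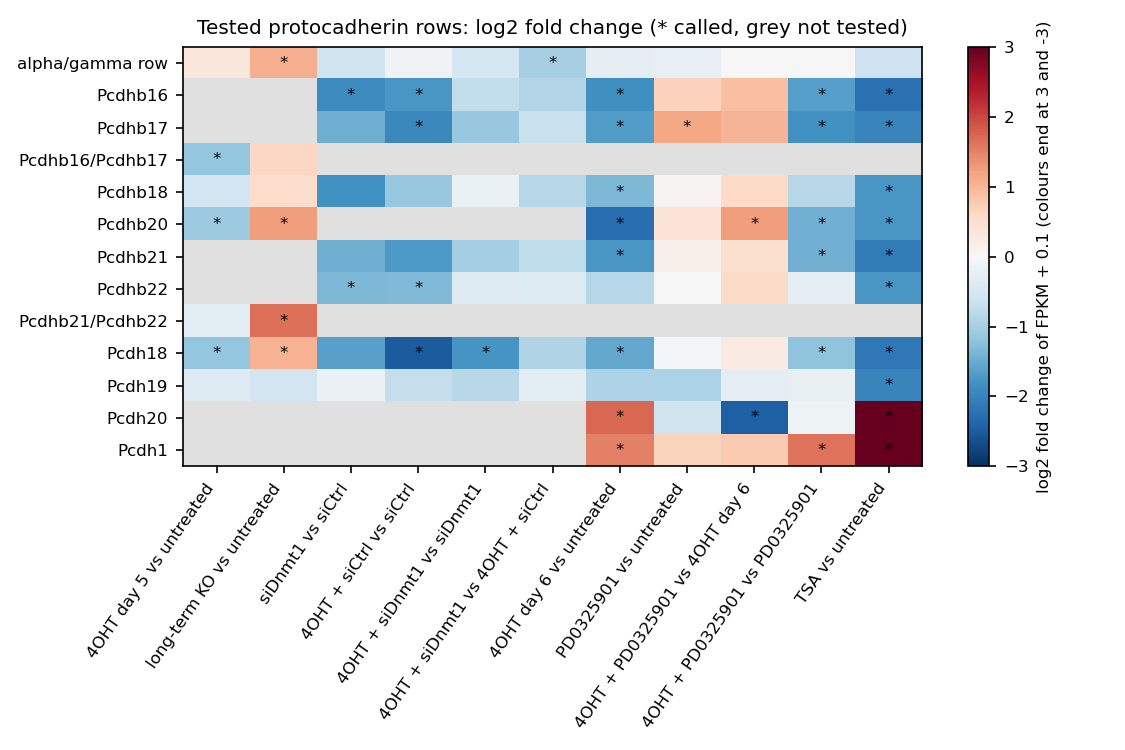
Log2 fold change of FPKM + 0.1 for every protocadherin row tested (rows) in 11 comparisons (columns), with red for higher and blue for lower in the first group, an asterisk for a call and grey where a row was not tested or is summed with its neighbour; colours end at 3 and -3. Beta genes and *Pcdh18* are blue with 4OHT at day 5 and day 6, siDnmt1 and TSA, and *Pcdh1* and *Pcdh20* are red with TSA.

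Genes that act on or with protocadherins were counted from lists. Of 24 tested promoter and silencing factors, 6 were called lower and 0 higher with TSA, where 12.7% of all features were lower and 19.0% higher, namely *Ctcf* (37.6 to 16.6 FPKM), the cohesin genes *Rad21* (163 to 69.0 FPKM) and *Stag1* (20.6 to 7.39 FPKM), *Trim28*, *Uhrf1* and *Dnmt3a*. *Ctcf* was not called in any other comparison, with log2 fold changes between -0.35 and 0.31. *Atf7ip*, the partner of SETDB1, was called higher at 4OHT day 5 (8.51 to 23.8 FPKM, where 2.08% of all features were higher), in long-term KO, in 4OHT + siCtrl (2.61% of all features higher) and in 4OHT + PD0325901 against PD0325901, and outside TSA the only other factor called was *Dnmt1* itself, lower in both siDnmt1 comparisons. Of 18 tested tail partners and proteases, 6 rose and 3 fell with TSA, beside the same 19.0% and 12.7% of all features, among them *Cyfip2* of the WAVE complex (0.0677 to 6.28 FPKM) and *Ret* (0.126 to 5.59 FPKM), and *Ptk2b* was the only call elsewhere, higher in long-term KO. *Taf7*, which lies between the beta and gamma clusters, was called higher in long-term KO against untreated (3.80 to 7.89 FPKM, adjusted p = 0.0392) and against 4OHT day 5, and not in the other comparisons. Of 14 tested neighbour genes in the total RNA experiment, 3 were called higher in long-term KO, where 7.46% of all features were, and 0 at 4OHT day 5. *Gnpda1* was called higher with 4OHT in both siRNA comparisons and lower with TSA, *Fchsd1* higher with TSA, *Rnf14* lower in 4OHT + siDnmt1 against 4OHT + siCtrl, and *Tmco6* was listed at 0 in all treated inhibitor libraries.

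Other cadherins included genes that moved with the members and genes that did not. Of 10 tested in the total RNA experiment, 2 were called lower at 4OHT day 5, beside 1.26% of all features, and 3 higher and 1 lower in long-term KO, beside 7.46% and 6.16%. *Cdh11*, a mesenchymal cadherin, was at 8.62 FPKM untreated, 3.55 FPKM at 4OHT day 5 and 25.9 FPKM in long-term KO (means, n = 3 each). *Fat4* was at 0.0248, 0.0302 and 9.12 FPKM in the same groups. With siDnmt1, 2 of 10 were called lower (*Fat4* and *Cdh13*) and 1 higher (*Cdh19*, listed at 0 in siCtrl and at a mean of 4.58 FPKM in siDnmt1), beside 2.38% of all features lower and 2.33% higher. With TSA, 5 of 13 were called higher, among them *Celsr1* and *Cdh1*, and 2 lower, *Cdh3* and *Dchs1*, beside 19.0% of all features higher and 12.7% lower, and *Cdh3* rose with PD0325901. These lists are small and their tested genes passed the same filter, so nothing is read from the counts about a list.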

How the data were processed

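RNA-seq FPKM values were analysed as the authors deposited them. TopHat2 2.0.12 was used by the authors to map reads to mm9, with 1 position kept per read, and Cufflinks to estimate FPKM per library. Cuffdiff tables hold the authors' own comparisons and were not used. The siRNA and inhibitor rows were joined by gene symbol. Total RNA loci were assembled per library and were assigned by position, where a locus covered 95% of a gene. Depth implied by the deposited confidence intervals was 38.4 to 43.6, 14.4 to 16.4 and 11.5 to 13.3 (in 1e+06 fragments) for total RNA, siRNA and inhibitor libraries. Values were tested as log2(FPKM + 0.1) with limma 3.58.1 in R 4.3.3, with 1 fit per experiment over all groups, a minimum of 1 FPKM, and calls at an adjusted p under 0.05 with at least a 2-fold change. A fold change on this scale understates low genes. Near-identical *Pcdhb* copies share reads, so their split is uncertain. Summaries and plots used Python 3.11.15, pandas 2.3.3, scipy 1.17.1 and matplotlib 3.10.9. Every tested or called member was named, and untested members by range with the 5 highest means. The members and lists were chosen with earlier results of these data known. The code was tested on simulated data. Alternatives were other pseudocounts, no filter, median-ratio scaling, a replicate block and leaving out each library. Among members, *Pcdhb21* and *Pcdhb22*, and *Pcdhb16* and *Pcdhb17*, were summed in total RNA.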

Additional observations from a re-analysis of the deposited data

Results flagged for a closer look

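For 4 members the 2 times of the total RNA experiment differed from untreated cells in opposite directions. They were lower at 4OHT day 5 and higher in long-term KO, each with an adjusted p under 0.05 by limma. The labels name no untreated group of matched time in culture for long-term KO, and the part of that time was not tested. The direct comparison of long-term KO with 4OHT day 5 gave log2 differences of 2.20 for *Pcdh18*, 1.77 for *Pcdhb16* with *Pcdhb17*, 1.10 for *Pcdhb18* and 2.35 for *Pcdhb20*, all called by limma. *Pcdhb18* and *Pcdhb20* passed the filter through long-term KO alone. *Pcdhb21* with *Pcdhb22* had the same signs, with log2 fold changes of -0.34 at 4OHT day 5 (adjusted p = 0.0504) and 1.65 in long-term KO. The alpha/gamma row had a log2 fold change of 0.35 at 4OHT day 5, with every library above the untreated ones, and of -0.28 at 4OHT day 6 in the inhibitor experiment, with every library below them. That difference was not tested, since the experiments were normalized separately. By the paper, the day 5 libraries were of total RNA depleted of rRNA, and its methods name no library type for the inhibitor experiment. No group held 4 libraries, so single outlying libraries were not tested.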

How the results depend on the processing

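No called member changed sign under the alternatives run (pseudocounts, filter, scaling, locus coverage, replicate block and single libraries left out). With a pseudocount of 1, the number of members called became 0 for 4OHT + PD0325901 against 4OHT day 6, for 4OHT + siDnmt1 against 4OHT + siCtrl and for PD0325901, 1 at 4OHT day 5, and 2 for 4OHT day 6, for 4OHT + siCtrl and for 4OHT + PD0325901 against PD0325901. Without the filter on low values it became 19 with TSA, 11 for long-term KO against 4OHT day 5, 9 for long-term KO against untreated, 9 for 4OHT + siCtrl, 8 for siDnmt1, 2 for 4OHT + siDnmt1 against 4OHT + siCtrl and 0 for PD0325901. With median-ratio scaling it became 0 for 4OHT + siDnmt1 against 4OHT + siCtrl. A pseudocount of 1 shrinks the fold change of low genes by construction, and without the filter more features are tested. For the other settings the cause was not tested.

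Leaving out 1 library gave 0 to 1 calls for 4OHT + PD0325901 against 4OHT day 6, 1 to 4 against PD0325901, 0 to 5 for 4OHT + siCtrl, 0 to 1 for 4OHT + siDnmt1 against 4OHT + siCtrl, 0 for 4OHT + siDnmt1 against siDnmt1, 0 for siDnmt1, 4 to 8 for 4OHT day 6, 0 to 1 for PD0325901 and 2 to 3 for 4OHT day 5. It gave 10 with TSA, 4 for long-term KO against untreated and 5 against 4OHT day 5 in each case. In groups of 2, the lone library was assumed to vary like the other groups.

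Same-numbered libraries share only a number in the labels. Their deviations correlated between -0.0446 and 0.167 in total RNA, between -0.0518 and 0.0379 in the siRNA experiment. In the inhibitor experiment they were 0.207, 0.227 and 0.266 among PD0325901, 4OHT day 6 and 4OHT + PD0325901, and between -0.0226 and 0.0370 for pairs with untreated or TSA. With the block, the number of calls did not change in the comparisons among those 3 groups (2 against 4OHT day 6 and 6 against PD0325901). With the replicate block, calls became 0 for 4OHT + siDnmt1 against 4OHT + siCtrl, 0 against siDnmt1 and 1 for siDnmt1 against siCtrl. *Pcdhb16* also lost its call in 4OHT + siCtrl (adjusted p = 0.0526). Untested beta genes rest on few fragments, so small differences among them were not detectable at this depth.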
